A study of Mus musculus with 10 samples.

Results

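The genes described here serve the thyroid hormone system: the deiodinases Dio3 and Dio2, the nuclear receptors Thra and Thrb, the transporter Slco1c1, the cytosolic hormone-binding protein Crym, and Hr, a target gene of the hormone. They are 7 of 22255 genes in the gene table, all 7 were found there by symbol, and all 7 passed the filter on low counts. They were selected on the AM6545 against vehicle values: Dio3 was chosen by its higher level in AM6545 libraries and the other 6 were set beside it. Their difference between the groups is therefore given as a description, with no test.

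RNA came from hippocampal synaptoneurosomes, a fraction enriched in resealed synaptic terminals and spines, of wild-type C57Bl/6J mice. One group of 5 libraries came from mice given vehicle and the other group of 5 from mice given AM6545 sub-chronically. AM6545 is an antagonist of the cannabinoid receptor CB1 that enters the brain poorly, and the study asked how the synaptic RNA content looked after it. The labels give no dose, age, sex or batch and do not say whether a library came from 1 animal or a pool, so n counts libraries and a p-value measures only the spread between these libraries.

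Thyroid hormone reaches the brain mostly as the prohormone T4, which carriers such as OATP1C1, the product of Slco1c1, bring across the blood-brain barrier and the choroid plexus. Type 2 deiodinase, made mainly by astrocytes and tanycytes, removes an outer-ring iodine and turns T4 into the active hormone T3, while type 3 deiodinase, made mainly by neurons, removes an inner-ring iodine and inactivates both hormones. T3 binds nuclear receptors that pair with retinoid X receptors and switch target genes such as Hr and Klf9. The cytosolic protein mu-crystallin, encoded by Crym, binds T3 inside the cell.

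Deiodinases are selenoproteins: a TGA codon inside the reading frame, otherwise a stop, is read as selenocysteine, the residue at the active site. The stretch around that codon is shown because it is what makes Dio3 and Dio2 one enzyme family, with Dio1 for comparison. Each run is 45 bases of the coding strand, 5′ to 3′, from GENCODE M21 transcripts on GRCm38, with the in-frame TGA in capitals.
Dio3, codon 170, chr12:110279718-110279762, plus strand: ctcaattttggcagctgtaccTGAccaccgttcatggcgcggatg
Dio2, codon 130, chr12:90729802-90729846, minus strand: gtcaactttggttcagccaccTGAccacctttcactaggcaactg
Dio1, codon 126, chr4:107297679-107297723, minus strand: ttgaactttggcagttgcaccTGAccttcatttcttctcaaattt
Dio3 and Dio2 shared 28 of the 45 bases, Dio1 and Dio3 shared 26, and Dio1 and Dio2 shared 25. The Dio2 reading frame holds 2 such codons, of which the first is shown.

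In the GENCODE M21 annotation of GRCm38, Dio3 (ENSMUSG00000075707.7) lies at chr12:110279068-110281097 on the plus strand and Dio2 (ENSMUSG00000007682.8) at chr12:90724552-90738438 on the minus strand. Thra (ENSMUSG00000058756.14) lies at chr11:98740638-98769006 and Thrb (ENSMUSG00000021779.20) at chr14:17660261-18038090, both on the plus strand. Slco1c1 (ENSMUSG00000030235.18) is at chr6:141524368-141570177 on the plus strand, Crym (ENSMUSG00000030905.6) at chr7:120186380-120202111 on the minus strand, and Hr (ENSMUSG00000022096.15) at chr14:70552212-70573548 on the plus strand. Exons of Gm26512 overlap exons of Dio2, and exons of Nr1d1 overlap exons of Thra, in both cases on the opposite strand. Whether counting used the strand is not given in the sources used here, so reads of these pairs cannot be told apart.

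Library totals ran from 18106112 to 25899794 counts, which puts a floor of 3 counts at 0.117 to 0.165 CPM (counts scaled to library size, here with TMM factors). Markers of hippocampal cells were present: all 6 dentate granule, 6 CA1 and 5 CA3 markers were in the table and passed the filter. So did all 8 neuron and 8 astrocyte markers. Passing does not set this tissue apart, because all 6 thalamic, 6 oligodendrocyte, 6 microglia and 5 red blood cell markers passed too. Of 6 striatal markers 5 passed. The oligodendrocyte markers summed to 14399 to 20909 CPM in vehicle and 12224 to 28188 CPM in AM6545 libraries. One library stood apart in a way that touches these genes. The choroid plexus marker score, the mean log2 CPM of 8 genes, was 1.04 in vehicle 4, while the other vehicle libraries had 5.61 to 6.06 and the AM6545 libraries 3.83 to 6.02. Over all genes, edgeR's quasi-likelihood test with Benjamini-Hochberg adjustment called 0 of 14358 genes between the groups (0%), and 270 genes (1.88%) had an unadjusted p under 0.05.

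Per transcript length, the 7 genes spanned a wide range, and most neighbours in the order were apart in every library. In TPM, abundances per transcript length scaled to a common total and computed from the deposited transcript counts and GENCODE M21 lengths, Crym was highest at 409.7 ± 75.1 (SD, n = 10), with a range of 285 to 510.5. Thra followed at 148 ± 7.45 TPM (138 to 163), then Slco1c1 at 41.3 ± 14.9 TPM (14.3 to 65.3). The binding protein thus lay at percentile 98.2 of the genes with counts, the receptor gene Thra at 93.4 and the transporter at 78.1. Thrb had 9.94 ± 1.72 TPM (7.36 to 13.6), Dio2 8.37 ± 1.37 TPM (6.10 to 10.5) and Dio3 7.84 ± 2.37 TPM (5.03 to 13.1), all with n = 10. These 3 genes lay near the middle of the table, at percentiles 51.4 to 55.0. Hr was lowest at 0.664 ± 0.306 TPM (0.301 to 1.30; n = 10), at percentile 26.4. The ranges of Thrb, Dio2 and Dio3 overlapped one another, and no other neighbours in the order overlapped. Thrb was above Dio2 in 8 of 10 libraries and Dio2 above Dio3 in 8 of 10, while each other gene was above its next neighbour in 10 of 10.

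**Figure D1:**
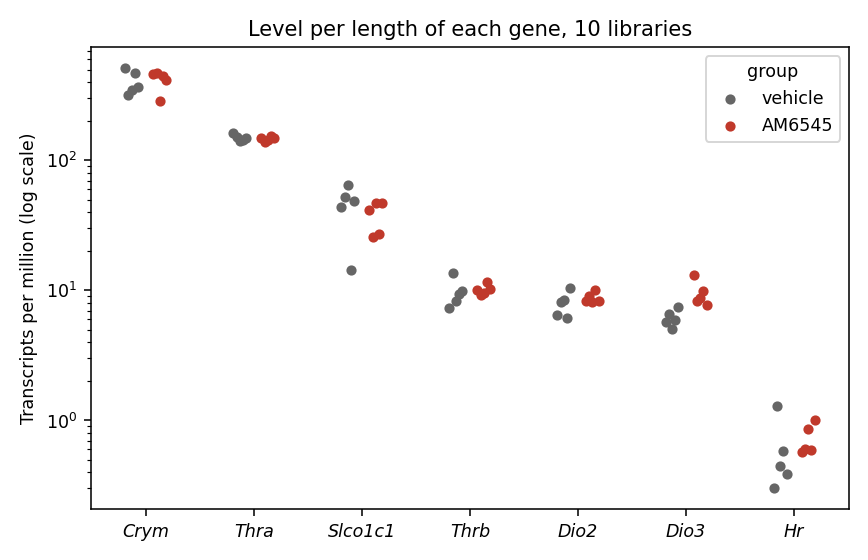
Level of each of the 7 genes in TPM (log axis) in 5 vehicle and 5 AM6545 libraries, each point 1 library. Crym lies between 285 and 510.5, Hr between 0.301 and 1.30, and the ranges of Thrb, Dio2 and Dio3 meet.

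Dio3, whose product inactivates T4 and T3, had 6.84, 6.25, 5.44, 6.39 and 7.56 CPM in vehicle libraries 1 to 5. In AM6545 libraries 1 to 5 it had 13.3, 8.68, 9.20, 9.23 and 7.81 CPM. Every AM6545 library was higher than every vehicle library, although the nearest pair, AM6545 5 and vehicle 5, were 7.81 and 7.56. The group means were 9.65 ± 2.13 and 6.50 ± 0.780 CPM (± SD over 5 libraries each), and the edgeR log2 fold change (AM6545 over vehicle) was 0.57 ± 0.15 (SE), or 1.49-fold. The values rested on 105 to 343 counts per library. This difference is what chose the gene. Over all tested genes, the AM6545 range lay wholly above the vehicle range for 25 of 14358 (0.174%) and wholly below it for 17 (0.118%). No other of the 7 genes was without overlap in either direction. The log2 fold change of Dio3 was at percentile 99.3 of the tested genes, and the smallest adjusted p of any gene in the edgeR test was 0.9998. In these bulk libraries, a different share of cells or terminals of one type and a different amount of RNA in each cannot be told apart.

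AM6545 1 was the highest Dio3 library by a wide margin, at 13.3 CPM against 7.81 to 9.23 in the other 4 of its group. Without it, the log2 difference was 0.42 ± 0.14 (SE), and the remaining 4 libraries were still above all vehicle libraries. Leaving out any other single library gave 0.52 to 0.64. In length-scaled units the group means were 9.53 ± 2.17 TPM with AM6545 and 6.15 ± 0.907 TPM with vehicle (± SD over 5 libraries each).

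The whole Dio3 count was assigned to the transcript Dio3-202 in 9 of the 10 libraries. In AM6545 4, 165 counts went to Dio3-202 and 57.2 to Dio3-201, a second annotated transcript with 0 counts elsewhere. On Dio3-202 alone AM6545 4 had 6.86 CPM, which is below vehicle 5 at 7.56 CPM, so 4 of 5 AM6545 libraries were above all vehicle libraries. The log2 fold change of Dio3-202 was 0.50 ± 0.19 (SE).

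**Figure D2:**
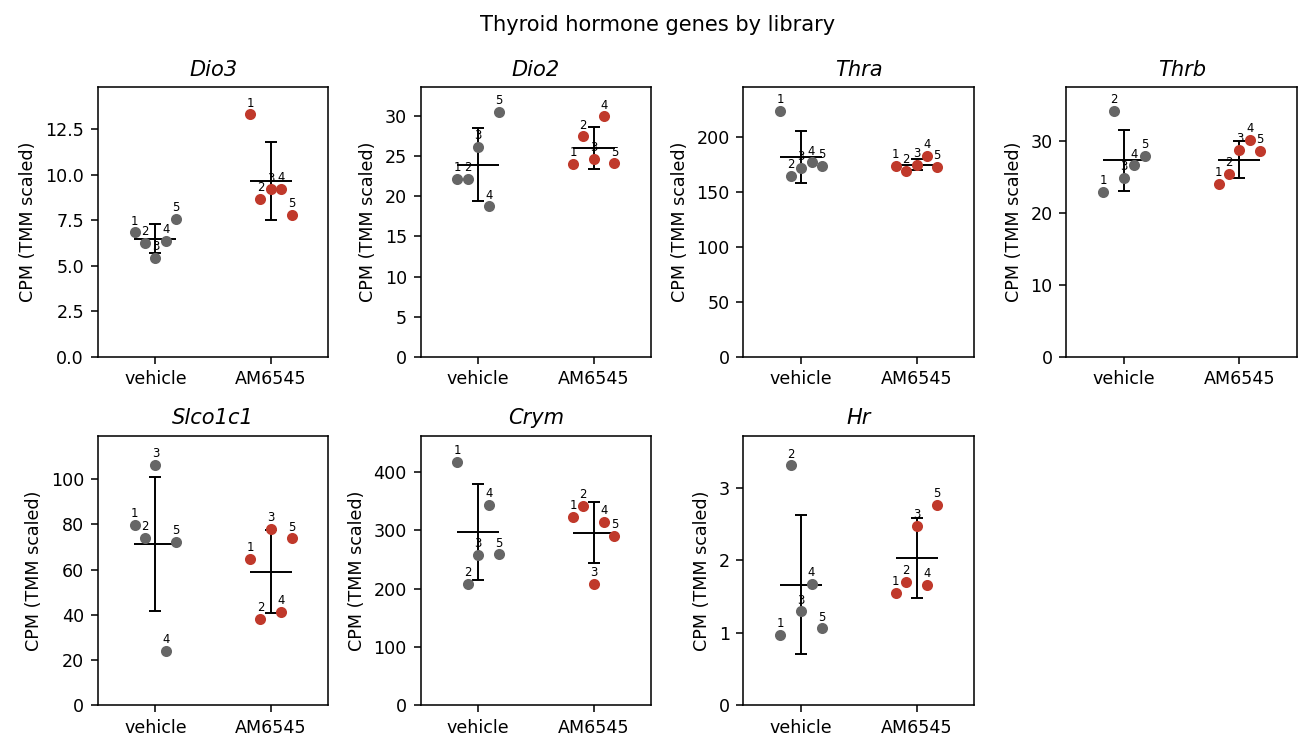
CPM of each of the 7 genes by library (points, numbered 1 to 5 within each group), with the mean and SD of the group (bars). In the Dio3 panel the AM6545 points run from 7.81 to 13.3 and the vehicle points from 5.44 to 7.56, and in each of the other panels the groups overlap.

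Dio2, whose product makes T3 from T4, had 22.2, 22.2, 26.2, 18.8 and 30.5 CPM in vehicle libraries 1 to 5 and 24.1, 27.5, 24.7, 30.0 and 24.1 CPM in AM6545 libraries 1 to 5. The highest and the lowest value both belonged to vehicle libraries, and no AM6545 library lay outside the vehicle range. The means were 23.97 ± 4.52 CPM with vehicle and 26.1 ± 2.60 CPM with AM6545 (± SD over 5 libraries each), with a log2 fold change of 0.12 and a standard error of 0.13. It was 0.045 without vehicle 4 and 0.23 without vehicle 5. Its counts were 448 to 721 per library, all on 1 transcript, Dio2-201. The opposing enzymes thus stood at 0.57 and 0.12 on the log2 scale, each against the same vehicle libraries.

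Astrocytes are the known source of Dio2 in brain, and their markers differed little between the groups. The astrocyte marker score was 8.48 ± 0.0944 log2 CPM with vehicle and 8.53 ± 0.174 with AM6545 (± SD over 5 libraries each, difference 0.05, two-sided exact permutation p = 0.571, adjusted over 4 scores 0.762). The difference was -0.0030 without AM6545 3 and 0.11 without AM6545 5. The 8 markers, led by Aldoc and Slc1a2, summed to 4452 to 4968 CPM in vehicle and 3832 to 5557 CPM in AM6545 libraries, with none at 0. The neuron score, for the known source of Dio3, was 8.86 ± 0.0978 and 8.90 ± 0.112 log2 CPM (± SD over 5 libraries each, difference 0.04, exact permutation p = 0.524, adjusted 0.762). This difference was 0.09 without AM6545 3 and 0.02 without vehicle 2. Its 8 markers, led by Snap25 and Syt1, summed to 6786 to 8029 CPM and 6059 to 7403 CPM, with none at 0. With 5 against 5 libraries the smallest p such a test can give is 0.00794.

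Dio3 sits at the far end of an imprinted domain of chromosome 12, in which Dio3, Dlk1 and Rtl1 are expressed mainly from the paternal copy. Dlk1, a non-canonical Notch ligand at chr12:109452823-109463336 on the plus strand, had 5.19, 3.27, 3.37, 4.38 and 5.31 CPM in vehicle libraries 1 to 5 and 6.80, 5.37, 8.54, 5.57 and 5.63 CPM in AM6545 libraries 1 to 5. As with Dio3, the AM6545 range lay wholly above the vehicle range, and the margin between AM6545 2 and vehicle 5 was small. The means were 4.30 ± 0.969 and 6.38 ± 1.33 CPM (± SD over 5 libraries each), a log2 difference of 0.56 ± 0.18 (SE). Dlk1 did not pass the threshold (edgeR unadjusted p = 0.00659, adjusted p = 0.9998), and it rested on 65 to 175 counts.

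The other genes of the domain in the table overlapped between the groups. Begain, a postsynaptic density protein gene at chr12:109032187-109068217 on the minus strand, had 46.5 ± 7.18 CPM with vehicle and 53.6 ± 5.16 CPM with AM6545 (± SD over 5 libraries each). The edgeR difference was 0.20 ± 0.11 (log2, SE), with an unadjusted p of 0.0938 and an adjusted p of 0.9998. Without vehicle 1 the difference was 0.13. In 3 of 5 AM6545 libraries Begain was above every vehicle library. Rtl1, a retrotransposon-derived gene at chr12:109589193-109600330 on the minus strand with microRNA genes opposite, had only 4 to 19 counts per library, with 0.522 ± 0.316 and 0.496 ± 0.146 CPM (± SD over 5 libraries each). The edgeR difference was -0.08 ± 0.42 (log2, SE), with an unadjusted p of 0.855, and its sign turned in 4 of 10 fits without a single library. Dio3os, Meg3, Rian and Mirg, non-coding genes of the same domain, were not analysed here.

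Across the 10 libraries, Dio3 and Dlk1 had a Pearson r of 0.795 (permutation p = 0.00635, adjusted over 108 relations 0.337) and a Spearman rho of 0.903 (permutation p = 0.00093, adjusted 0.0880). Without the 2 libraries farthest from the median Dlk1 level r was 0.893, and it was 0.847 within vehicle and 0.354 within AM6545 libraries. Neither adjusted value passed the threshold. The pooled r and rho include the group difference for which Dio3 was chosen, so their p-values are no independent test of a link between the genes.

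**Figure D3:**
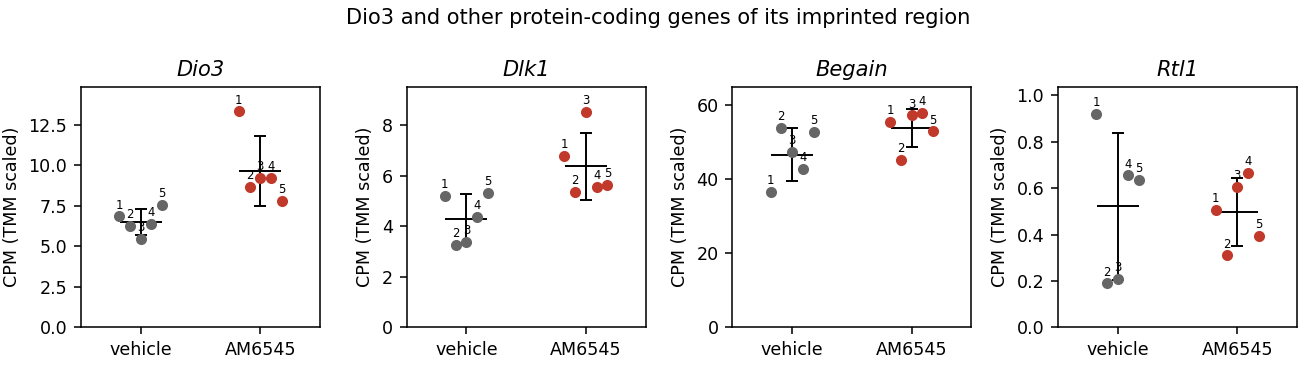
CPM of Dio3 and of the 3 other genes of its imprinted domain in the gene table, by library (points, numbered within each group), with group mean and SD (bars). The groups are apart for Dio3 and Dlk1 and overlap for Begain and Rtl1, where the level is below 1 CPM.

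The receptors differed little between the groups. Thra had 224, 164, 172, 177 and 174 CPM in vehicle libraries 1 to 5 and 174, 169.5, 175, 183 and 173 CPM in AM6545 libraries 1 to 5. Vehicle 1 was above every other library, and the other 9 lay between 164 and 183. The means were 182 ± 23.8 and 175 ± 4.87 CPM (± SD over 5 libraries each), a log2 difference of -0.06 ± 0.098 (SE), on 3174 to 4615 counts. Without vehicle 1 it was 0.03. Thra was the steadiest of the 7: its pooled SD within groups was 0.13 on the log2 scale, at percentile 12.3 of the tested genes, where the median was 0.21.

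Thrb had 22.9, 34.2, 24.9, 26.7 and 27.95 CPM in vehicle libraries 1 to 5 and 24.1, 25.4, 28.8, 30.2 and 28.7 CPM in AM6545 libraries 1 to 5. The vehicle libraries held both the lowest and the highest value. The means were 27.3 ± 4.26 and 27.4 ± 2.57 CPM (± SD over 5 libraries each), with a log2 fold change of 0.0047, a standard error of 0.12 and 473 to 727 counts per library. Its sign was opposite in 8 of 17 alternative fits.

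The receptor genes make proteins that differ in whether they bind the hormone. Thra encodes TRα1, which binds T3, and the splice form TRα2, which does not and can weaken the action of the others. Thra-201, whose 492 residues are those of TRα2, held 82.1 ± 2.45% of the Thra transcripts per length in vehicle and 82.6 ± 1.29% in AM6545 libraries (± SD over 5 libraries each). Thra-202, with the 410 residues of TRα1, held 9.50 ± 1.77% and 10.1 ± 0.543% (± SD over 5 libraries each). The non-binding form was thus the main one in all 10 libraries, from 78.5% to 84.9%, against 7.79% to 11.9% for TRα1. The log2 fold changes were -0.06 ± 0.089 (SE) for Thra-201 and 0.03 ± 0.15 (SE) for Thra-202.

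The bases that tell the Thra forms apart lie at the 3′ end. Thra-201 has 912 bases that Thra-202 lacks, 850 of them in its last exon, and 263 of the 912 are also exonic in Nr1d1, a circadian repressor gene read from the other strand. Thra-202 has 706 bases of its own, and both share 1540. The part of Nr1d1 reads in the Thra-201 share was not tested.

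Thrb encodes TRβ1 and TRβ2, which share their hormone-binding end and differ in the first part of the protein, made from separate first exons. The windows before these first exons are shown because they are what separates the forms in the genome. Each is the part of the RefSeq promoter table (GRCm38.p6) that lies before the first GENCODE M21 exon there, on the plus strand, 5′ to 3′. Both windows lie inside the annotated gene, which begins at chr14:17660261, so another annotated Thrb start lies upstream of the first window. Capitals mark matches, searched on both strands, to AGGTCA, the half-site that thyroid hormone receptors bind, and to TATAAA, the core of a TATA box.
Before Thrb-201, the TRβ1 start, chr14:17660710-17660891: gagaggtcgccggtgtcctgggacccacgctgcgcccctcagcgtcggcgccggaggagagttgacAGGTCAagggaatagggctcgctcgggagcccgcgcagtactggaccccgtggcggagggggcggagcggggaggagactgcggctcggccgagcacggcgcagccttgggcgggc
Before Thrb-202, the TRβ2 start, chr14:17981394-17981528: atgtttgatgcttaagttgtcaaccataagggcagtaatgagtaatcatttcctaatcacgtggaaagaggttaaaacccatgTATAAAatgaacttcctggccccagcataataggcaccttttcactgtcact
The first window, 182 bases, had a GC content of 74.2% and 1 AGGTCA that begins 116 bases before the exon. The second, 135 bases, had a GC content of 39.3% and 1 TATAAA that begins 52 bases before the exon. Of 32851 promoters in the table, 10.4% held AGGTCA in the 182 bases directly before the RefSeq start and 7.01% held TATAAA in the 135 bases before it. The Thrb windows end farther upstream, at the GENCODE exon, so these shares are for windows of the same length but not the same position. A match describes letters in a window and nothing more.

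Thrb-202, with the 475 residues of TRβ2, held 73.9 ± 5.70% of the Thrb transcripts per length in vehicle and 73.1 ± 6.52% in AM6545 libraries (± SD over 5 libraries each). Thrb-201, with the 461 residues of TRβ1, held 18.9 ± 7.13% and 15.1 ± 6.08% (± SD over 5 libraries each). The TRβ2 transcript was the larger in all 10 libraries, at 66.5% to 83.3% against 8.06% to 26.0%. The annotated transcripts also differ at the other end: of the 2204 bases that Thrb-202 has and Thrb-201 lacks, 1531 lie in the last exon, while Thrb-201 has 536 bases of its own and 3996 are shared. The part of this longer last exon in the Thrb-202 share was not tested. The log2 fold changes were 0.04 ± 0.10 (SE) for Thrb-202 and -0.30 ± 0.42 (SE) for Thrb-201, which had only 36.9 to 146 counts per library.

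On the log2 scale, Slco1c1 varied more within the groups than any of the other 6 genes. It had 79.9, 73.99, 106, 23.99 and 72.2 CPM in vehicle libraries 1 to 5 and 64.6, 38.1, 77.9, 41.3 and 73.7 CPM in AM6545 libraries 1 to 5. Vehicle 4 was lowest and vehicle 3 highest, so the AM6545 values lay within the vehicle range. The means were 71.2 ± 29.7 and 59.1 ± 18.4 CPM (± SD over 5 libraries each), a log2 difference of -0.27 ± 0.37 (SE), on 586 to 2048 counts. Its pooled SD within groups was 0.67 on the log2 scale, at percentile 96.7 of the tested genes. The fold change was -0.49 without vehicle 4 and -0.08 without vehicle 3.

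Slco1c1 varied between libraries with the choroid plexus markers, which come from an epithelium known to make OATP1C1. Over the 10 libraries its log2 CPM and the marker score had a Pearson r of 0.955 (permutation p = 0.00011, adjusted over 108 relations 0.0119) and a Spearman rho of 0.879 (permutation p = 0.00163, adjusted 0.0880). Leaving out vehicle 4 and AM6545 4, the libraries farthest from the median score, gave r = 0.915. Leaving out only vehicle 4, r was 0.939 over both groups. The AM6545 libraries alone gave r = 0.961. The r of 0.973 among vehicle libraries leans on vehicle 4, whose score of 1.04 lay far below the 5.61 to 6.06 of the rest. How close the relation was among those remaining vehicle libraries was not tested. In all, 108 relations were computed between the 7 genes, 12 marker scores and 3 neighbours of Dio3. Only that of Slco1c1 with the choroid plexus score had a Pearson r with an adjusted p under 0.05. Slco1c1 and the neuron score had r = -0.76 (permutation p = 0.00936, adjusted 0.337) and rho = -0.76 (permutation p = 0.0147, adjusted 0.396). Without vehicle 4 this r was -0.65, and it was -0.92 within vehicle and -0.60 within AM6545 libraries.

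The choroid plexus markers, led by Ttr and Kcnj13, summed to 62.2 to 5070 CPM in vehicle and 658 to 4022 CPM in AM6545 libraries, with none of the 8 at 0 in all libraries. Their score had the same mean in both groups to 2 decimals (4.93 ± 2.18 with vehicle and 4.93 ± 0.980 with AM6545, ± SD over 5 libraries each, difference -0.0021, exact permutation p = 1). That equality rested on vehicle 4: the difference was -0.98 without it (exact permutation p = 0.119) and 0.279 without vehicle 3. Their part in the group difference of Slco1c1 was not tested. The transporter is also known from brain endothelium, whose score was 1.60 ± 0.395 with vehicle and 1.46 ± 0.308 with AM6545 (± SD over 5 libraries each, difference -0.14, exact permutation p = 0.556, adjusted 0.762). It was -0.033 without vehicle 1 and -0.26 without AM6545 5. The 8 endothelial markers, led by Slc2a1 and Ly6c1, summed to 67.8 to 92.0 and 64.8 to 83.0 CPM, none at 0. Slco1c1 and the endothelial score had a Pearson r of 0.0310 (permutation p = 0.934, adjusted 0.995) and a Spearman rho of -0.18 (permutation p = 0.631, adjusted 0.955). Without vehicle 1 and AM6545 5 r was -0.26, and it was -0.18 within vehicle and 0.389 within AM6545 libraries.

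**Figure D4:**
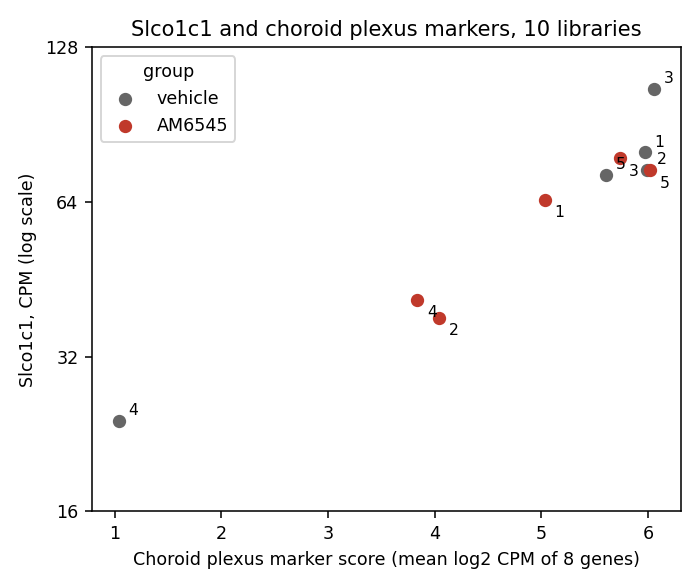
Slco1c1 in CPM (log axis) against the choroid plexus marker score, the mean log2 CPM of 8 genes, with 1 point per library numbered within its group. Vehicle 4 lies lowest on both axes, at 23.99 CPM and a score of 1.04, and among the other 9 libraries, too, those with a higher score tend to have more Slco1c1.

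Slco1c1-201, the transcript of the full 715 residues, held 80.6 ± 13.9% of Slco1c1 per length in vehicle and 76.7 ± 19.2% in AM6545 libraries (± SD over 5 libraries each). It was lowest in AM6545 2 at 47.0% and highest in vehicle 4 at 99.5%. Slco1c1-202, annotated as a target of nonsense-mediated decay, held 10.8 ± 7.98% and 15.7 ± 10.7% (± SD over 5 libraries each). Slco1c1-206, a shorter coding form of 666 residues, held 8.30 ± 6.08% and 7.09 ± 8.67% (± SD over 5 libraries each) and had 0 counts in vehicle 4, AM6545 3 and AM6545 5. The spread between libraries was larger than the difference between the groups for each form. Their log2 fold changes were -0.22 ± 0.41 (SE), -0.14 ± 0.89 (SE) and -1.15 ± 1.42 (SE) in this order.

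Crym, the T3-binding protein of the cytosol, had 417, 208, 257, 344 and 259 CPM in vehicle libraries 1 to 5 and 323, 341, 208, 315 and 289.9 CPM in AM6545 libraries 1 to 5. Vehicle 1 was highest, and AM6545 3 lay just below the lowest vehicle library. The means were 297 ± 82.9 and 295 ± 52.4 CPM (± SD over 5 libraries each), a log2 difference of -0.0078 ± 0.17 (SE), on 3769 to 8591 counts. The sign turned in 6 of 17 alternative fits. Nearly all of it, 99.2% per length in both groups, was on Crym-201.

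Hr encodes hairless, a nuclear corepressor whose gene is switched on by T3 in brain. It had 0.970, 3.31, 1.30, 1.68 and 1.06 CPM in vehicle libraries 1 to 5 and 1.55, 1.70, 2.48, 1.66 and 2.77 CPM in AM6545 libraries 1 to 5. Vehicle 2 was the highest of all, so the groups overlapped over most of their range. The means were 1.66 ± 0.962 and 2.03 ± 0.550 CPM (± SD over 5 libraries each), a log2 difference of 0.28 ± 0.32 (SE). Counts per library were 20 to 70, and the log2 fold change was 0.69 without vehicle 2 and 0.14 without vehicle 1. Its pooled SD within groups, 0.54 on the log2 scale, was at percentile 94.1 of the tested genes.

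Hr and Thrb, a target and a receptor, had a Pearson r of 0.737 across the 10 libraries (permutation p = 0.0150, adjusted 0.404) and a Spearman rho of 0.697 (permutation p = 0.0304, adjusted 0.611). Without vehicle 1 and vehicle 2, r was 0.380, so the relation rests on those libraries. Among vehicle libraries alone r was 0.869, and among AM6545 libraries 0.513. Crym and Thrb had r = -0.70 (permutation p = 0.0246, adjusted 0.443) and rho = -0.62 (permutation p = 0.0607, adjusted 0.611). Without the same libraries r was -0.31, and within the groups it was -0.82 in vehicle and -0.45 in AM6545 libraries. For Thra, the other receptor gene, the signs were opposite. Thra and Hr had r = -0.58 (permutation p = 0.0575, adjusted 0.690) and rho = -0.49 (permutation p = 0.154, adjusted 0.791). Thra and Crym had r = 0.656 (permutation p = 0.0202, adjusted 0.437) and rho = 0.479 (permutation p = 0.168, adjusted 0.791). Without vehicle 1 and vehicle 2 these r were 0.012 and 0.102. None of these relations passed adjustment.

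The genes whose log2 CPM followed each of the 7 most closely across the 10 libraries were sought among 13524 genes with a mean of at least 1 CPM, by Pearson r and as a description. For Dio3 they were Nphp4 (0.899), Zfp513 (0.897) and Cul7 (0.895), and for Dio2 they were Etv6 (0.948), Nbas (0.896) and Pld1 (0.866). For Thra they were Bmyc (0.972), Tmem159 (0.970) and Clpp (0.961), and for Thrb they were Usp42 (0.969), Dusp7 (0.934) and Wapl (0.927). Slco1c1 was followed by Sulf1 (0.988), Lbp (0.986) and Enpp2 (0.985), the last of which, autotaxin, is abundant in choroid plexus. Crym was followed by Tuba1b (0.990), Mrps30 (0.989) and Ldha (0.986), and Hr by Rad54l2 (0.952), D10Jhu81e (0.906) and Nsg2 (0.897). No gene was named for more than 1 of the 7. These are the highest of 13524 values over only 10 libraries, and how high the top values would be by chance was not tested. The r with Dio3 also includes the group difference for which Dio3 was chosen.

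A list of 56 other genes of the thyroid hormone system gave the surroundings of the 7. Of these, 55 were in the table and 45 passed the filter. With edgeR's quasi-likelihood test 0 of the 45 had an adjusted p under 0.05, and 1, Trh, had an unadjusted p under 0.05. Over all 14358 genes tested these counts were 0 and 270 (1.88%). The median log2 fold change of the 45 was 0.02, with 25 above 0 and 20 below, beside a median of -0.0057 over all 14358 genes, with 6906 above and 7452 below. In 0 of the 45 was the AM6545 range wholly above or wholly below the vehicle range. Such genes were rare over all 14358 too, at 25 above (0.174%) and 17 below (0.118%). Dio1 had 0 to 10 counts per library and did not pass the filter, so Dio3 and Dio2 were the deiodinases measured here. Iyd, which recovers iodide and also stands in the CA3 marker list, had a log2 fold change of 0.03 (edgeR adjusted p = 0.9998).

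Of the other transporters, 7 passed, 3 above 0 and 4 below, with a median of -0.02. The highest and lowest were Slc7a5, a large neutral amino acid transporter, at 0.19 and Slc16a10, encoding MCT10, at -0.09. Slc7a5 was at 0.057 without vehicle 1 and 0.31 without vehicle 2. Ttr, the T4 carrier of the cerebrospinal fluid and a choroid plexus marker, ran from 41.5 CPM in vehicle 4 to 4654 CPM, also in a vehicle library. Its means were 2455 ± 1648 and 1750 ± 1250 CPM (± SD over 5 libraries each). The edgeR difference was -0.49 ± 0.95 (log2, SE; adjusted p = 0.9998), and it was -0.12 without vehicle 1, -0.81 without vehicle 4 and -0.94 without AM6545 5.

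The retinoid X receptors, partners of Thra and Thrb on DNA, were all 3 above 0, from 0.03 for Rxrb to 0.13 for Rxrg, with a median of 0.09. Of the 10 coregulators 5 were above 0 and 5 below, from -0.15 for the coactivator gene Ncoa3 to 0.099 for Thrap3, named for its association with thyroid hormone receptor. Rxrb changed sign when single libraries were left out, and Rxrg was at 0.053 without vehicle 2 and 0.23 without AM6545 3. Ncoa3 was at -0.23 without AM6545 2, and without the same library Thrap3 was at 0.020. Like Hr, 14 further genes are known to be raised by T3 in some tissue. They were 8 above 0 and 6 below, with a median of 0.04. Klf9, a transcription factor gene with a T3 response element, had 243 ± 18.1 CPM with vehicle and 223 ± 11.5 CPM with AM6545 (± SD over 5 libraries each). The edgeR difference was -0.13 ± 0.089 (log2, SE), with an unadjusted p of 0.168. Sema7a, a membrane-bound semaphorin gene, was highest at 0.35 (standard error 0.21, edgeR unadjusted p = 0.107), and Gbp3, an interferon-induced GTPase gene, was lowest at -0.22. Without vehicle 1 Sema7a was at 0.20, and Gbp3 was at -0.068 without vehicle 2 and -0.36 without vehicle 3. The target Hr, at 0.28, lay between these ends.

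Since Dio3 and Dio2 need selenocysteine, genes of selenoprotein synthesis and selenium supply were also followed. Of 6, 3 were above 0 and 3 below, with a median of 0.0013. Sepsecs, the last enzyme in making selenocysteine on its tRNA, had 9.52 ± 0.847 CPM with vehicle and 11.2 ± 1.07 CPM with AM6545 (± SD over 5 libraries each). The edgeR difference was 0.24 ± 0.11 (log2, SE), with an unadjusted p of 0.0541 and an adjusted p of 0.9998. Pstk, the kinase that acts just before it, was lowest at -0.11, and was at -0.062 without AM6545 2 and -0.20 without AM6545 5.

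Of 9 genes of the hypothalamus, pituitary and thyroid axis, 3 passed the filter. Trh, encoding thyrotropin-releasing hormone, had 10, 4, 3, 5 and 21 counts in vehicle libraries 1 to 5 and 391, 2, 11, 20 and 21 counts in AM6545 libraries 1 to 5. Its log2 fold change of 3.20 (standard error 1.33, edgeR unadjusted p = 0.0418, adjusted p = 0.9998) rested on AM6545 1, which was also the highest Dio3 library, and was 0.72 without it. Trhde, which degrades the hormone, had a log2 fold change of -0.04, and turned positive when vehicle 3 was left out.

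**Figure D5:**
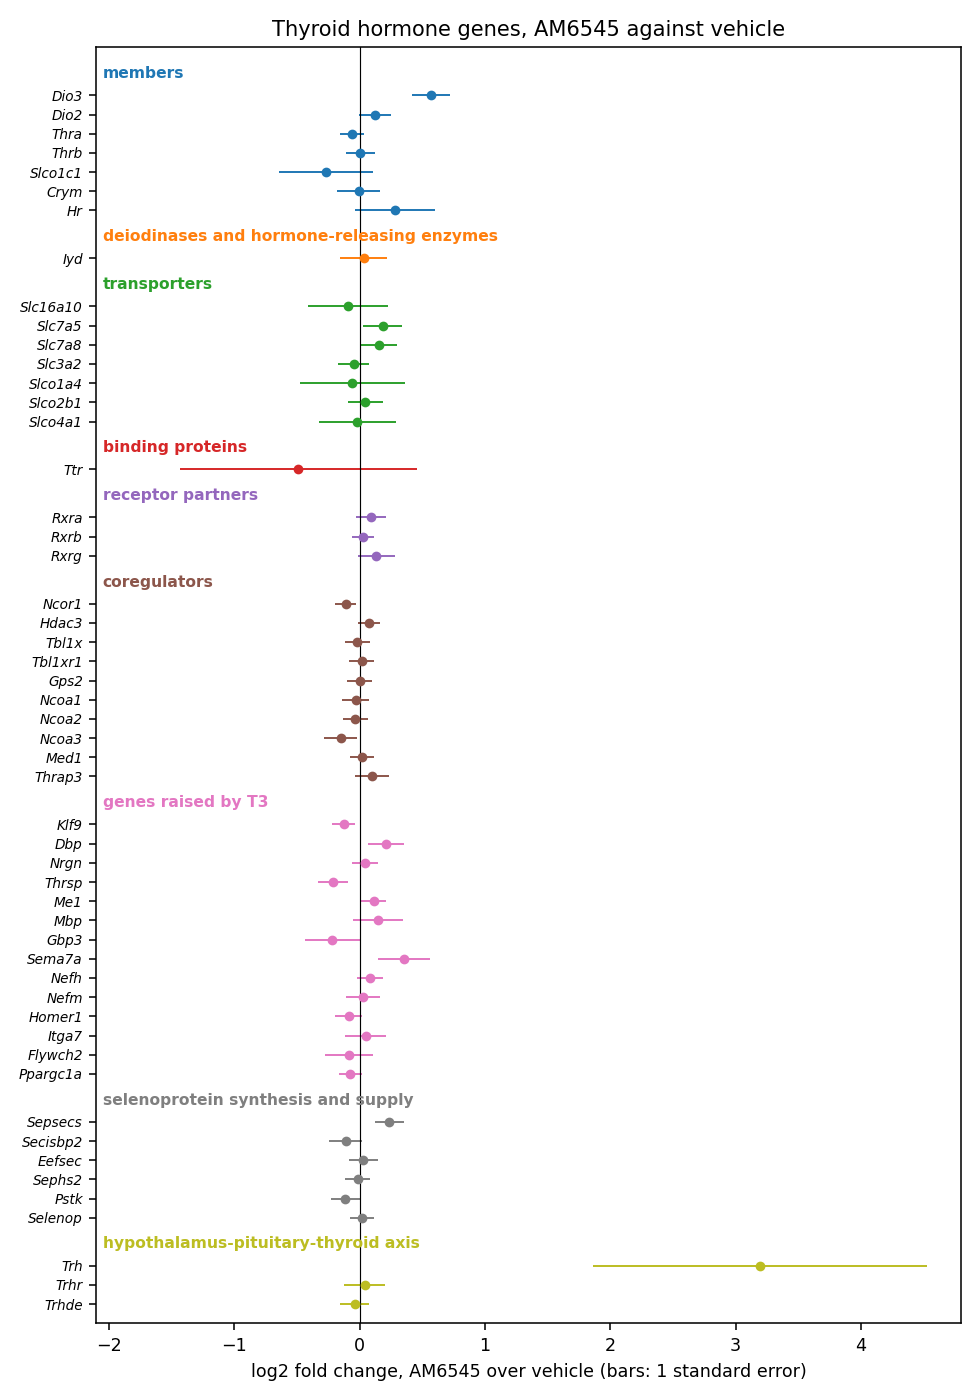
Log2 fold change, AM6545 over vehicle, of the 7 genes (top, labelled members) and of the 45 listed genes that passed the filter, by role, with bars of 1 standard error from the edgeR fit. Most points lie near 0, Dio3 stands at 0.57, and Trh at 3.20 has a standard error of 1.33.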

How the data were processed

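RNA of hippocampal synaptoneurosomes was made into libraries by a SMARTer method for low input, as the labels' protocols state. The authors deposited estimated counts per gene (22255 genes) and per transcript (102392 transcripts), and Salmon 1.5.2 and the genome build mm10 are named, per the submitters' processing notes. Of the deposited values, 38.6% per gene and 41.56% per transcript were not whole numbers. The annotation release, the filters and the use of strand are not given in the sources used here. Groups and replicate numbers were taken from the library titles, and all columns were matched to a library by name.

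Estimated counts were rounded and fitted with edgeR 4.0.16 in R 4.3.3 (TMM factors, filterByExpr with a minimum count of 10 and a minimum total of 15, group as the only term, robust quasi-likelihood dispersions, two-sided tests, Benjamini-Hochberg adjusted p under 0.05). The transcript fit held 31848 transcripts. The models were checked on simulated counts. Levels per length used GENCODE M21 lengths, known for 101527 transcripts. Symbols were matched by identifier without version for 22155 genes. Only 11 gene identifiers had the same version as in M21, so the exon structure used for counting may differ from the one described. RefSeq promoter windows were matched for Dio2, Dio3, Slco1c1 and Thrb. Marker scores are means of log2 CPM (prior count 2), compared by exact permutation of the 10 libraries and adjusted over the 4 scores tested (astrocyte, endothelial, choroid plexus, neuron). Scores of 8 more lists (dentate granule, CA1, CA3, striatal, thalamic, oligodendrocyte, microglia, red blood cell) entered the correlations, which had 100000 permutations in Python 3.11.15 with numpy 2.4.6 and pandas 2.3.3. Floors of 3 counts cover counting error only, because PCR copies were not told apart by molecular identifiers.

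The 7 genes and all lists were chosen with earlier results of these data known, and 2 listed genes are not reported here. Named besides the 7 were the listed genes with an adjusted p under 0.05 or else the highest and lowest log2 fold change of each role, Ttr and Klf9 in any case, the genes of the Dio3 domain, the 3 genes most correlated with each of the 7, the 2 most abundant markers of each scored list, and up to 4 transcripts per gene with at least 5% of its counts. Alternatives in edgeR were size factors by the DESeq2 method, library totals alone, a minimum of 10 counts throughout and no filter. The replicate number was also fitted as a block. Others were the DESeq2 1.42.0 Wald test and limma 3.58.1 voom with quality weights. The scores were also computed with a prior count of 0.5, and each library was left out in turn.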

Additional observations from a re-analysis of the deposited data

Results flagged for a closer look

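In 58 groups of 5 libraries, the highest or lowest library was set against the other 4. In 7 it stood apart, with a gap to the next library of more than 0.71 of the range. For independent groups of normally distributed values chance gives about 3. That number is no measure of chance here. The groups include Dio3 and genes named for extreme fold changes, and some repeat one another, such as Ttr and the choroid plexus score. Dio3 was 13.3 CPM in AM6545 1, and 7.81 to 9.23 in the rest of its group. The same library had 15.2 CPM of Trh, against 0.103 to 1.04 in the others of its group. In a list of 8 hypothalamic neuron markers, chosen after these values had been seen, AM6545 1 summed to 1.13 CPM. This was within the 0.622 to 1.33 CPM of the vehicle libraries, and no marker exceeded 0.840 CPM in any library. With markers this low, the sum says little about the Trh counts, whose source was not tested. Thra was 224 CPM in vehicle 1, where the rest of the group had 164 to 177, and Sema7a, a gene raised by T3, was 1.70 CPM there, against 3.36 to 3.95. The choroid plexus marker score was 1.04 in vehicle 4, against 5.61 to 6.06, and the neuron marker score was 9.03 in the same library, against 8.79 to 8.83. The neuron marker score was 8.70 in AM6545 3, where the rest of that group had 8.93 to 8.96.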

How the results depend on the processing

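The count of genes with an adjusted p under 0.05 was 0 in edgeR's quasi-likelihood test and 0 with each of 7 other settings, and 0 to 1 when each library was left out (1 without vehicle 3 and 1 without AM6545 3). The count at an unadjusted p under 0.05 was 270 genes, 276 with the DESeq2 Wald test, 710 with limma-voom and 433 without a filter, and 165 to 578 when each library was left out. The labels do not say whether replicate numbers pair the libraries, and these values do not settle it. Same-numbered libraries had correlations of -0.19 to 0.39. For numbers 3 and 4 the same-numbered libraries were each other's best partner. Vehicle 5 also correlated best with AM6545 5, and the remaining libraries correlated best with another number. With the number as a block 0 genes were called, 277 had an unadjusted p under 0.05, and 0 of the thyroid list passed, as in all other settings. With the block Dio3 had a log2 fold change of 0.55 ± 0.15 (SE), Slco1c1 -0.19 ± 0.20 (SE) and Hr 0.38 ± 0.32 (SE). Over 17 alternatives, Dio3 ranged from 0.42 to 0.64, Dio2 from 0.04 to 0.23, Thra from -0.09 to 0.03, Thrb from -0.05 to 0.10, Slco1c1 from -0.49 to -0.08, Crym from -0.11 to 0.17 and Hr from 0.14 to 0.69, so the sign of Thra, Thrb and Crym depended on the setting. Fold changes that changed sign when libraries were left out were those of Iyd (-0.083 to 0.18, and -0.025 with limma-voom), Slc16a10 (-0.24 to 0.14), Rxrb (-0.0094 to 0.055), Rtl1 (-0.29 to 0.20, and 0.26 with limma-voom) and Trhde (-0.10 to 0.059). Of the score differences, that of astrocytes ranged from -0.0030 to 0.11 and that of choroid plexus from -0.98 (without vehicle 4) to 0.28, the latter difference being 0.0037 with library totals alone and 0.031 with a prior count of 0.5. Ttr was -0.04 with the replicate block, and Sema7a 0.13 with limma-voom. The causes were not tested. Rtl1, Hr and Trh rest on few counts. The log2 fold change of Hr, 0.28, was within 1 standard error (0.32) over all libraries. It was 0.69 ± 0.27 (SE) without vehicle 2 and 0.14 ± 0.31 (SE) without vehicle 1.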
